A study of Stylophora pistillata with 24 samples.

Results

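The genes described here are 160 cell cycle and DNA replication genes of the stony coral Stylophora pistillata, out of 33281 genes that were counted in its tissue. A gene was a member when the product name in the deposited annotation held one of a fixed set of words: cyclin- (48 genes), centromere (27), DNA polymerase (22), DNA replication (16), cell division cycle (11), replication licensing factor (10), kinetochore (9), anaphase-promoting (9), cell division control (6), origin recognition complex (6), condensin (6), aurora kinase (1) or polo-like kinase (0). The rule used names and no measured value, but it was set with earlier results of these data known. The names rest on likeness to proteins of other animals and yeast, so each role given below is that of the named protein in those organisms. The word cyclin- also takes in transcription kinases and other proteins with no part in cell division, and 65 members were set apart as a core of replication and division genes by their names. Of the 160 members, 159 were abundant enough to be tested. The member left out, CDC2 homolog 1 (gene21816), had 35 counts over all 24 libraries.

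Poly(A) RNA of whole-organism tissue was sequenced in 24 libraries, 3 in each of 8 groups. Planulae, the swimming larvae that this coral broods, and adult colonies were taken directly from the reef at 5 m (shallow) and at 45 m (deep). Juveniles were 8 or 60 days old, all came from the shallow reef, and had been kept on the reef in plastic chambers either at 5 m (control juveniles) or, after translocation, at 45 m (translocated juveniles). The labels give no genotype and do not say whether the samples of a group came from separate colonies or broods. Juveniles differ from planulae and adults in stage and in rearing, which cannot be told apart in these comparisons. In bulk tissue, fewer cells of a type and less RNA per cell also cannot be told apart.

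Before a cell copies its DNA, the origin recognition complex, CDC6 and CDT1 load the ring-shaped MCM helicase on the chromosome, and the kinase CDC7, CDC45 and the GINS complex then switch that helicase on for the polymerases to follow. Cyclins bound to cyclin-dependent kinases (CDKs) drive these steps and the entry into mitosis, in which condensins fold the chromosomes, kinetochores attach them to the spindle, and the anaphase-promoting complex (APC/C) releases them by marking proteins for destruction. Planulae swim with cilia, and after settlement the polyp builds a skeleton and grows by budding.

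The 24 libraries held between 13.57 and 35.78 M counts (M, 1000000), with a median of 24.32 M. Levels are counts per 1000000 (CPM) scaled between libraries, changes are differences of log2 level from 1 edgeR quasi-likelihood fit of all 24 libraries with their standard error (SE), and a member is called when its Benjamini-Hochberg adjusted p over 25735 genes is under 0.05. With 3 libraries a group, values are given library by library. Shallow planula replicate 1 stood nearer to the deep planulae (Spearman correlation over genes 0.910 to 0.923) than the other shallow planulae did (0.890 to 0.912), and within the deep adults replicate 3 correlated with the others at 0.883 to 0.901, against 0.922 between those others. Summed levels of 67 motile cilia genes were 11599 to 17190 CPM in shallow planulae and 2318 to 2465 CPM in 8-day controls, and those of 32 germ line and meiosis genes were 2112 to 2818 and 2730 to 5126 CPM. The part of these changes in tissue make-up in the results between planulae and later stages was not tested.

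Members were called most often between planulae and the stages after settlement. In 8-day control juveniles against shallow planulae, both at 5 m, 84 members rose and 21 fell, 66.0% of the 159 tested against 39.0% of all genes tested. Rises were 21.0% and falls 18.1% of all genes tested. The median change was 0.94 on the log2 scale for the members and 0.16 for all genes. The rises lay in the replication and division machinery: in the core, 46 rose and 5 fell of 65. Among the other cyclins and CDKs, several of them known from transcription, neurons or cilia, 3 rose and 12 fell of 26. With 1 library left out in turn 90 to 98 members were called, and without shallow planula replicate 1 the counts were 76 higher and 22 lower.

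**Figure D1:**
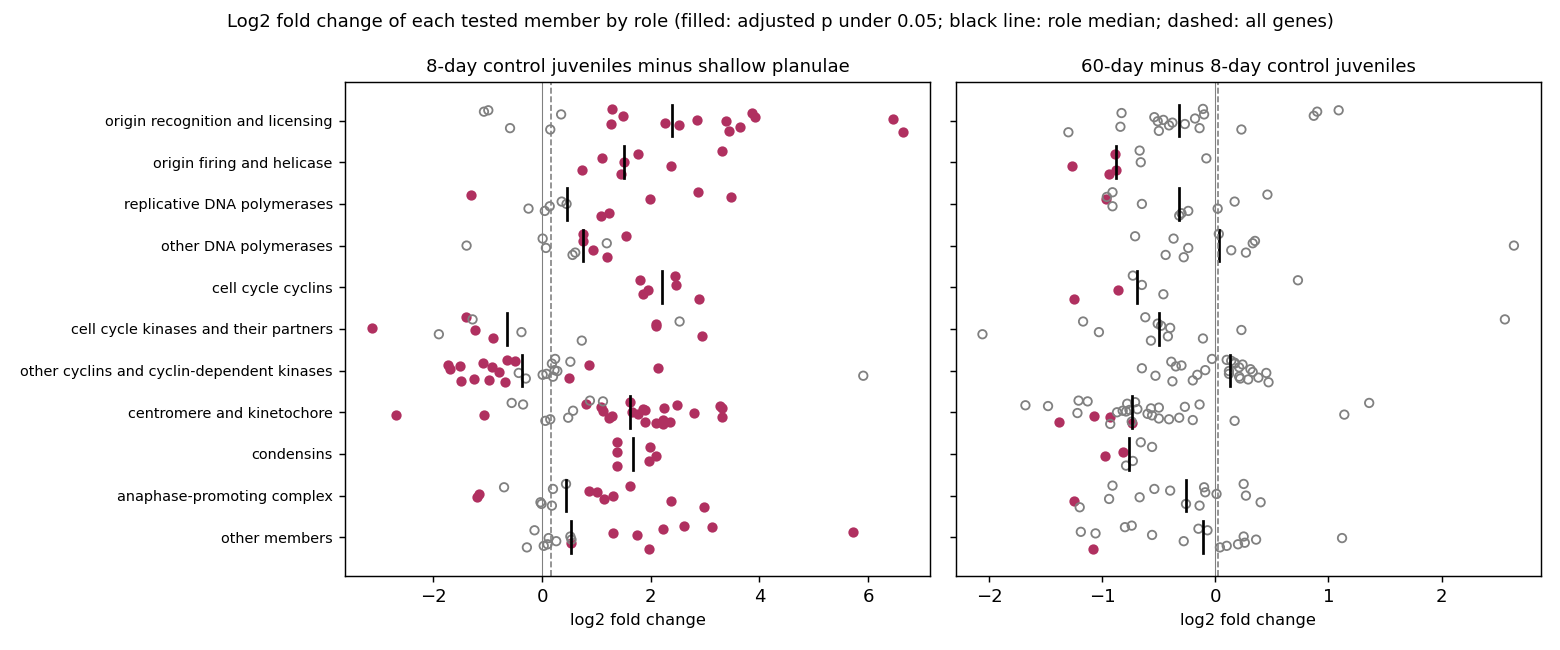
Change of each tested member on the log2 scale, grouped by role, for 8-day control juveniles minus shallow planulae (left) and 60-day minus 8-day control juveniles (right). Each point is 1 gene, filled where the adjusted p was under 0.05; the black line is the median of the role and the dashed line that of all genes, which was 0.16 on the left and 0.02 on the right. The firing factors, cyclins and condensins lie above the dashed line on the left and mostly below it on the right.

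The MCM helicase rose as a whole. MCM4 (gene18252) stood at 3.85, 3.26 and 3.98 CPM in the 3 shallow planula libraries and at 7.39, 5.02 and 2.15 CPM in deep planulae. In 8-day controls it stood at 55.4, 52.2 and 60.5 CPM, and in shallow adults at 59.1, 64.8 and 51.9 CPM. No planula library of either depth came near any juvenile or adult library, of which the lowest was a 60-day control at 29.3 CPM. The change from shallow planulae to 8-day controls was 3.92 (SE 0.35, adjusted p = 6.38e-08), a fold of 15.1. The other 5 subunits of the ring rose with it: MCM7 by 3.87, MCM6 by 3.65, MCM5 by 3.44, MCM3 by 3.38 and MCM2 by 2.27.

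MCM2 was the member of the ring with the smallest rise, and it was the one with the highest planula level. It stood at 17.8, 9.99 and 16.2 CPM in shallow planulae and at 74.4, 56.3 and 81.0 CPM in 8-day controls (SE 0.29, adjusted p = 5.18e-06). The MCM2 to MCM7 proteins act as a ring with 1 copy of each, so their levels were also set on the scale of CPM per kilobase of the deposited gene length. On that scale MCM2 was at 5.20 and MCM4 at 1.21 in shallow planulae, a ratio of 4.29 between the highest and the lowest subunit. The ratio was 2.07 in deep planulae and 1.43 to 1.63 in the other 6 groups. Across the 24 libraries the 6 genes moved in step, with Pearson correlations of 0.93 to 0.99 over the 15 pairs. These correlations are a description, since all pairs share the libraries and the split between planulae and later stages.

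**Figure D2:**
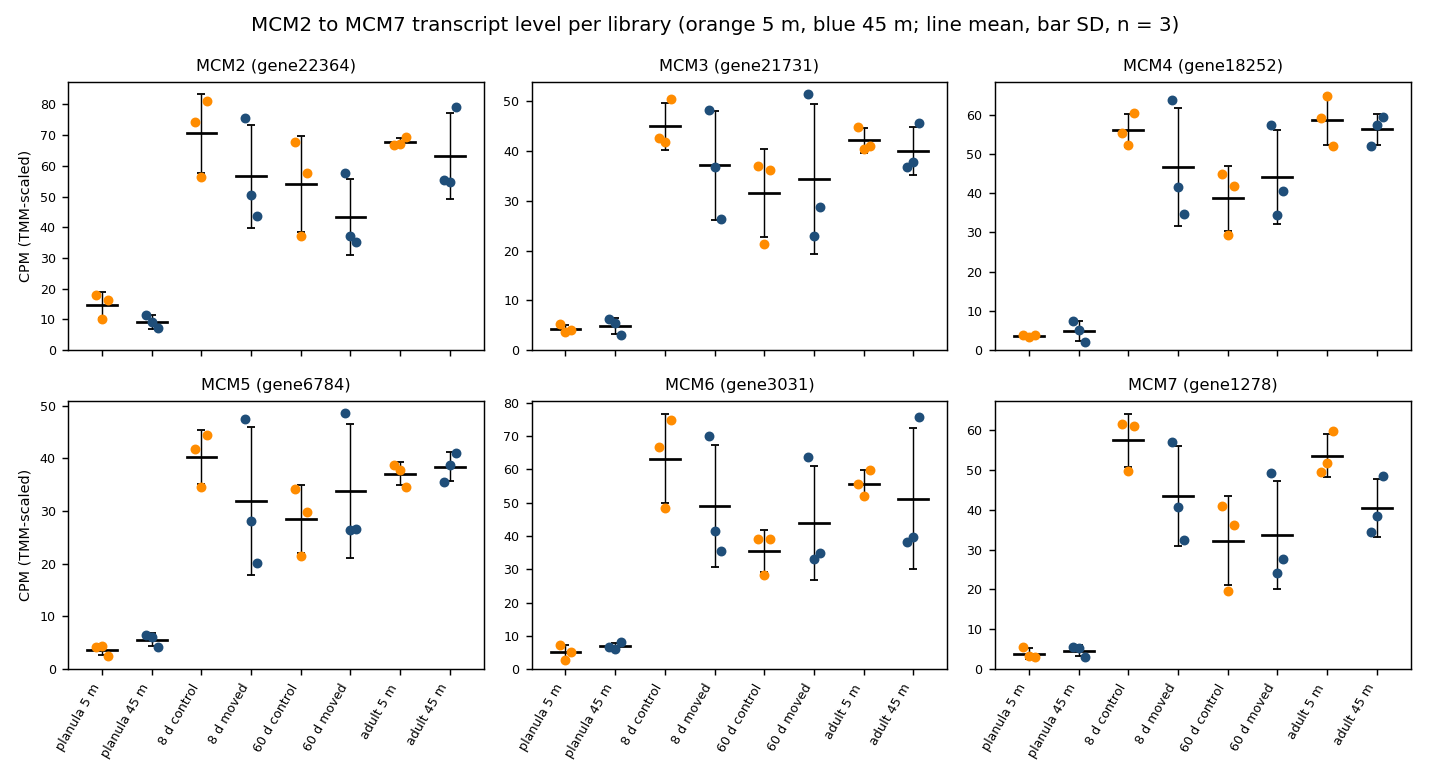
Level in CPM of MCM2 to MCM7 in each library, by group, with shallow (5 m) groups in orange and deep (45 m) groups in blue. Points are libraries, the line is the mean and the bar the SD of 3. In the MCM4 panel the 6 planula libraries lie between 2.15 and 7.39 CPM and all later libraries lie above them.

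Of the loading factors for the helicase, several rose and others did not pass the test. CDT1 (gene20454), which brings the MCM ring to the origin, stood at 3.10, 2.0 and 1.91 CPM in shallow planulae and at 17.4, 15.9 and 17.4 CPM in 8-day controls, a rise of 2.85 (SE 0.27, adjusted p = 1.42e-07). CDC6 (gene18842), its partner in loading, was close to absent from shallow planulae, with 2 counts over the 3 libraries against 491 in 8-day controls. That is a ratio of 99.6, with a 95% counting interval of 27.4 to 824, and the groups did not overlap. A short gene named MCM5 (gene6786) had 0 counts in shallow planulae and 51 in 8-day controls, at least 2.30-fold higher against a floor of 3 counts a library. In the origin recognition complex, which marks the start sites, ORC3 rose by 1.28, ORC5 by 1.26 and 1 of the genes named ORC4 (gene16410) by 1.49. ORC4 lost its call without shallow planula replicate 2 or 3 or 8-day control replicate 3. ORC1 (0.15, SE 0.30, adjusted p = 0.726) and ORC2 (0.35, SE 0.25, adjusted p = 0.294) did not pass the test. Origin recognition and licensing had 13 genes higher and 0 lower of 18.

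All 7 members that fire the origins and run the helicase rose. CDC7, the kinase that starts firing, stood at 0.605, 0.266 and 0.239 CPM in shallow planulae and at 3.18, 4.86 and 3.13 CPM in 8-day controls, a rise of 3.31 (SE 0.51). CDC45 rose by 1.76, from 6.50, 5.20 and 5.66 CPM to 21.3, 19.8 and 17.7 CPM. The GINS subunits PSF3, PSF1, PSF2 and SLD5 rose by 2.38, 1.45, 1.10 and 0.73, and the nuclease-helicase DNA2 by 1.51. SLD5 lost its call without shallow planula replicate 1 or 2 or 8-day control replicate 1 or 3 (highest adjusted p 0.0903), and DNA2 lost it without shallow planula replicate 1 or 2.

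Of the replicative polymerases, 5 rose and 1 fell of 11. The catalytic subunit of polymerase epsilon, which copies the leading strand, stood at 9.37, 6.66 and 8.68 CPM in shallow planulae and at 38.4, 33.1 and 26.5 CPM in 8-day controls, a rise of 1.99. Its subunit 2 rose by 3.48, the polymerase alpha B subunit by 2.86, and the catalytic subunits of delta and alpha by 1.23 and 1.09. The gene named as epsilon subunit C (gene11626) went the other way, from 130, 167 and 174 CPM to 68.3, 60.9 and 62.7 CPM. Among the other DNA polymerases, those of repair and bypass together with gamma-1 and V, 5 rose and 0 fell of 11. Eta, kappa and iota each lost the call when 1 library was left out.

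All 6 cell cycle cyclins rose in 8-day controls. Cyclin-B (gene4918), the mitotic cyclin, stood at 8.09, 4.73 and 5.26 CPM in shallow planulae and at 50.7, 34.9 and 48.6 CPM in 8-day controls, a rise of 2.89 (SE 0.31, adjusted p = 5.24e-07). Cyclin-A rose by 2.47, cyclin-F by 2.45, cyclin-B3 by 1.95, cyclin-D2 by 1.86 and cyclin-E by 1.81. Of their kinases, CDK1 (gene17281), which drives mitosis, stood at 18.2, 9.93 and 12.3 CPM in shallow planulae. It rose by 2.09 to 61.1, 50.8 and 60.8 CPM. CDK2, which acts in S phase, rose by 2.94 and the CDK-binding protein CKS1 (gene14774) by 2.10. None of these groups overlapped. A second gene named CKS1 (gene23739) did not pass the test (-0.38, SE 0.38, adjusted p = 0.451).

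The genes that fell include the brake on these kinases. CDK inhibitor 1B (CDKN1B, gene17591), the p27 type of inhibitor that holds cells before S phase, stood at 419, 409 and 378 CPM in shallow planulae and at 280, 322 and 325 CPM in deep planulae. It stood at 44.8, 42.7 and 50.1 CPM in 8-day controls, a change of -3.13 (SE 0.28, adjusted p = 8.53e-08), a fold of 8.75. Every planula library was above every juvenile and adult library, of which the highest was 89.5 CPM. CDK6, the partner of D cyclins in G1, fell by 1.40, from 85.7, 75.2 and 68.6 CPM to 25.1, 29.2 and 32.3 CPM, while its cyclin partner cyclin-D2 rose. CDK2-interacting protein fell by 1.23 and CDK2-associated protein 1 by 0.90.

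**Figure D3:**
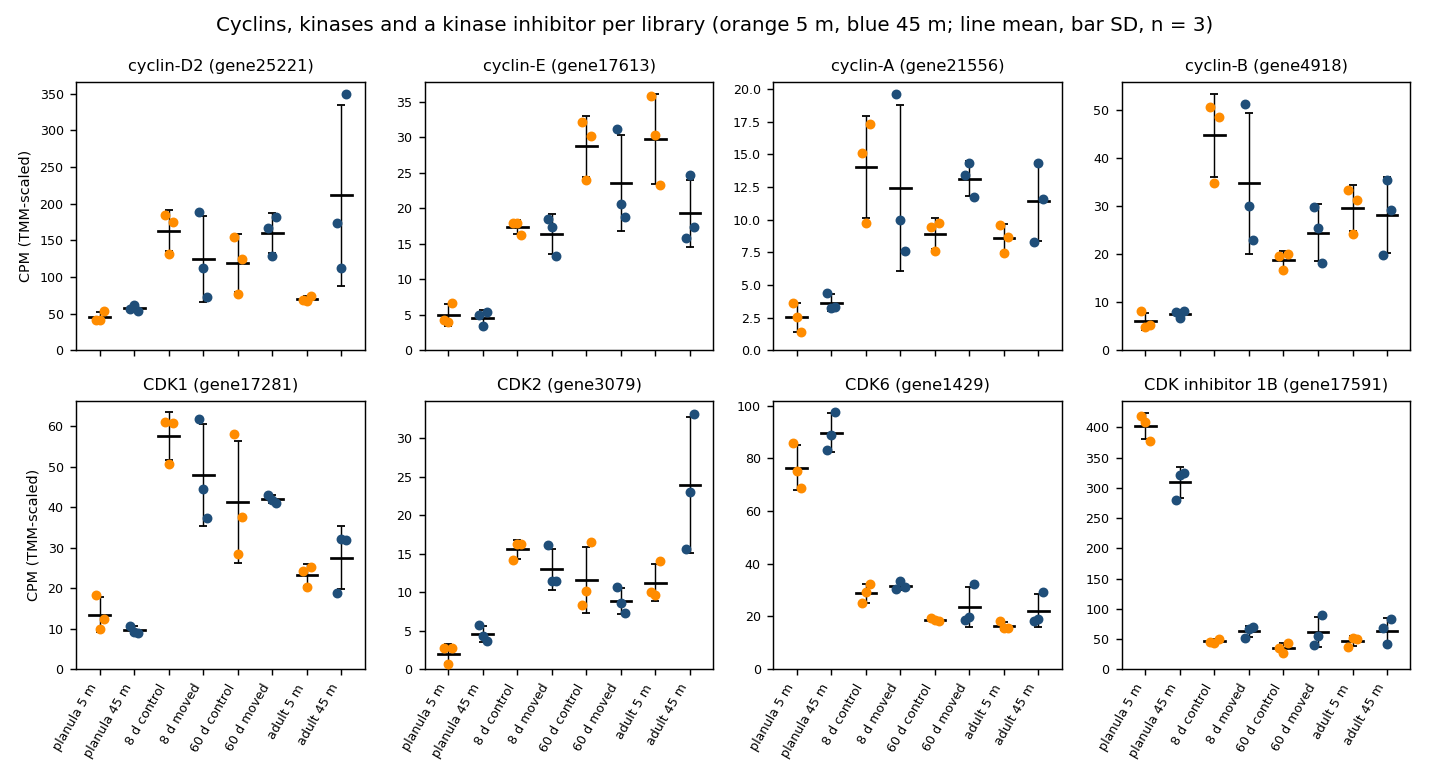
Level in CPM of cyclins D2, E, A and B, CDK1, CDK2, CDK6 and CDK inhibitor 1B in each library, by group, shallow groups in orange and deep groups in blue. Points are libraries, the line is the mean and the bar the SD of 3. Planulae hold 280 to 419 CPM of the inhibitor and 4.73 to 8.09 CPM of cyclin-B.

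Other cyclins and CDKs moved mostly downward. Cyclin-I stood at 491, 519 and 657 CPM in shallow planulae and at 232, 147 and 213 CPM in 8-day controls, a change of -1.49. CDK5 activator 1, known from neurons, fell by 1.74 and CDK20, known from cilia, by 1.70. CDK-like 4 fell by 1.51, CDK-like 2 by 1.25, cyclin-Y-like 1 by 1.09 and CDK14 by 0.92. CDK9, the kinase of transcription elongation, fell by 0.64. Cyclin-J was the main exception, with a rise of 2.14.

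Mitotic genes rose with the replication genes. Of the centromere and kinetochore genes, 21 rose and 2 fell of 31, and all 6 condensin subunits rose by 1.37 to 2.10. CENP-E (gene3942), the kinesin that carries chromosomes to the middle of the spindle, stood at 11.1, 7.59 and 7.17 CPM in shallow planulae and at 84.9, 95.5 and 75.7 CPM in 8-day controls, a rise of 3.31 (SE 0.24, adjusted p = 6.99e-09). Aurora kinase B, which corrects wrong attachments, rose by 2.09 and its partner INCENP by 1.61. The 4 subunits of the NDC80 complex, which grips the microtubule, all rose: SPC25 by 2.22, SPC24 by 1.65, NUF2 by 1.28 and NDC80 by 1.23. The inner kinetochore proteins CENP-P, CENP-N and CENP-K rose by 3.31, 3.27 and 2.22, and CENP-C by 1.09. Of the 2 genes that fell, 1 of the genes named CENP-F (gene28717) stood at 34.5, 7.46 and 25.7 CPM in shallow planulae and at 3.21, 3.59 and 3.76 CPM in 8-day controls, while another gene of that name (gene18590) rose by 2.25. The other, CENP-W (-1.07), lost its call without shallow planula replicate 3 or 8-day control replicate 2 or 3.

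In the APC/C and its activators, 7 rose and 2 fell of 15. CDC16 rose by 2.97, CDC23 by 1.13 and CDC27 by 1.01, and the activators named CDC20 by 2.37 (gene24141) and 1.31 (gene20080). The third gene named CDC20 (gene11171) stood at 7.86, 11.9 and 12.1 CPM in shallow planulae and at 6.04, 7.84 and 5.71 CPM in 8-day controls and did not pass the test (-0.70, SE 0.38, adjusted p = 0.158). The small subunits APC11, the catalytic ring protein, and APC15B fell by 1.20 and 1.16. APC11 lost its call without shallow planula replicate 3 or 8-day control replicate 2. Among the remaining members, CDCA7-like rose from 0.378, 0 and 0 CPM to 7.43, 6.84 and 6.26 CPM, and CDCA3 rose by 1.97.

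Genes of the same processes outside the name rule were read beside them. Of 47 tested S-phase genes (PCNA, primase, replication factor C and the like), 33 rose and 4 fell, with a median of 1.60. Of 40 mitosis genes, 26 rose and 2 fell, with a median of 1.10. Both lists follow words in product names and are broader than their titles. The S-phase list also holds E2F and retinoblastoma proteins, retinoblastoma-binding protein 5, UHRF1-binding protein 1 and mitochondrial thymidine kinase 2. The mitosis list also holds MIP18. Of 67 motile cilia genes, 2 rose and 55 fell (median -2.28), and of 32 germ line and meiosis genes 7 rose and 5 fell (median 0.41).

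Translocated juveniles 8 days old, set against the same shallow planulae, had 70 members higher and 23 lower, 58.5% of members against 41.6% of all genes tested. Licensing had 12 higher and 1 lower of 18, and all 6 cyclins and all 6 condensins rose. Adults were set against planulae at each depth, in separate sets of libraries. Shallow adults against shallow planulae had 69 members higher and 28 lower (61.0% against 54.3% of all genes), and deep adults against deep planulae had 71 higher and 23 lower (59.1% against 44.6%). MCM4 rose by 3.98 in the shallow pair (SE 0.35, adjusted p = 3.74e-08) and by 3.53 in the deep pair (SE 0.34, adjusted p = 1.52e-07). CDKN1B fell by 3.12 and by 2.28, and CDK6 fell by 2.22 and by 2.02. With 1 library left out in turn, the shallow pair had 84 to 91 members called and the deep pair 75 to 91. The highest counts came without shallow planula replicate 1 (91) and without deep adult replicate 3 (91, 65 higher and 26 lower). In the deep pair 64 of 94 calls were kept whichever library was left out, and 53 under every alternative. The comparisons with shallow planulae share those libraries.

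**Figure D4:**
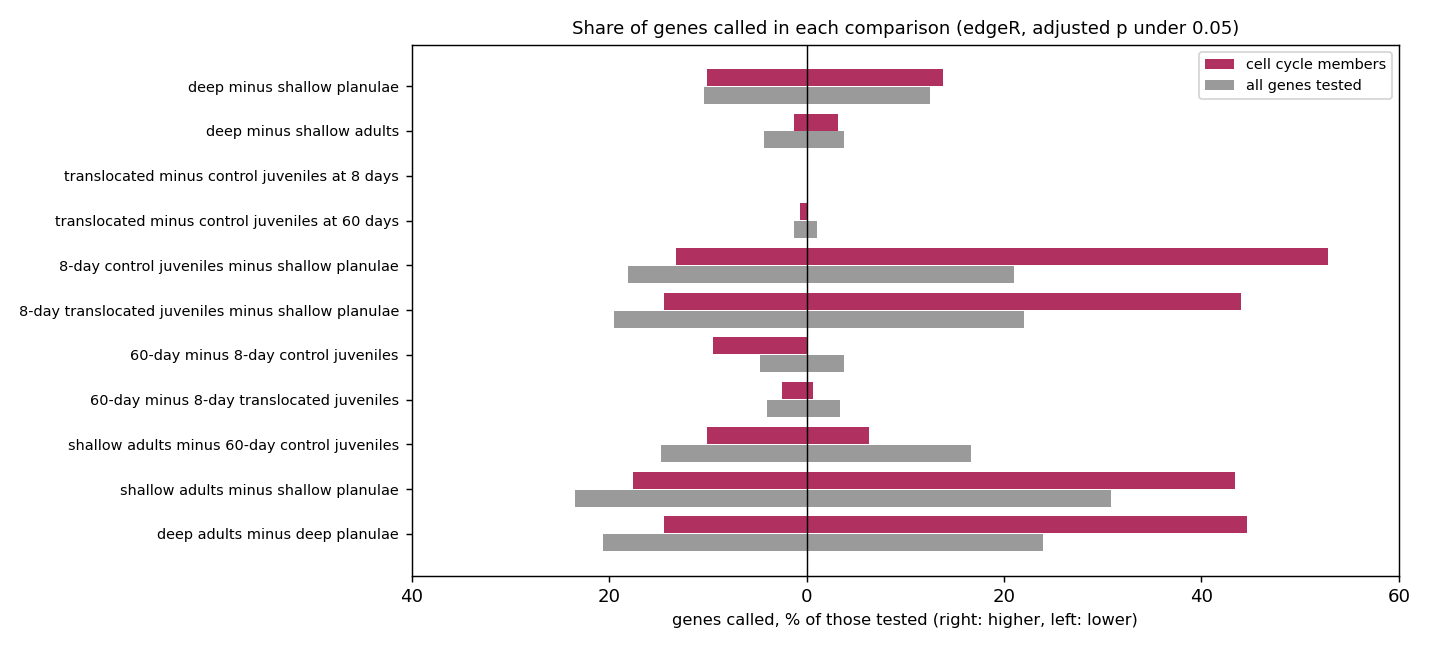
Share of tested members (n = 159) and of all genes tested (n = 25735) called higher (to the right) and lower (to the left) in 11 comparisons, in percent. The bars of the members reach furthest past those of all genes, to the right, where a later stage is set against planulae.

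Between 8 and 60 days at 5 m, members tended down. Of 159 members, 15 fell and 0 rose, 9.43% against 8.51% of all genes tested (3.83% higher, 4.69% lower), so the share called was near the background. The direction stood further from it: 113 of 159 changes were negative, with a median of -0.40 against 0.02 over all genes. These changes share the same libraries and are not separate observations. The members called were spread over roles. They were the GINS subunits PSF3 (-1.27), PSF1 (-0.94) and SLD5 (-0.88), CDC45 (-0.89), the epsilon catalytic subunit (-0.97), cyclin-B (-1.25), cyclin-B3 (-0.86), condensin subunit 2 (-0.98) and condensin-2 subunit H2 (-0.82). In mitosis they were CENP-X (-1.38), CDC20 (gene24141, -1.25), CDCA3 (-1.08), NUF2 (-1.07), CENP-E (gene3942, -0.93) and aurora kinase B (-0.74).

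Cyclin-B stood at 50.7, 34.9 and 48.6 CPM at 8 days and at 19.6, 16.6 and 20.1 CPM at 60 days (SE 0.29, adjusted p = 0.0089). The groups did not overlap, and cyclin-B alone of the 15 kept its call whichever library was left out (highest adjusted p 0.0419). The count fell to 2 without 8-day control replicate 1, to 3 without 60-day control replicate 2, to 4 without 60-day control replicate 3, to 5 without 8-day control replicate 3 and to 7 without 60-day control replicate 1. DESeq2 called 34 members, 3 higher and 31 lower. The licensing genes had none called, with 14 of 18 changes negative: MCM4 went from 55.4, 52.2 and 60.5 CPM to 44.9, 29.3 and 41.7 CPM (-0.54, SE 0.30, adjusted p = 0.323). At an unadjusted p under 0.05 there were 49 members over all roles, 5 higher and 44 lower, beside 21.9% of all genes. Of the 47 S-phase genes outside the rule 9 fell and 0 rose.

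In translocated juveniles the same interval called 5 members, 3.14% against 7.41% of all genes (3.38% higher, 4.03% lower). CDK-like 2 rose by 0.92, and CDC42 (gene17703), CDC23 and CENP-E genes gene2682 and gene4309 fell by 1.26, 1.21, 1.18 and 0.83. All 5 lost the call when some library was left out. The count was 1 without 8-day translocated replicate 2 or 3, and 3 without 8-day replicate 1 or 60-day replicate 1 or 2. Levels at 8 days were spread over the translocated libraries: cyclin-B stood at 51.2, 30.0 and 23.0 CPM and the MCM2 to MCM7 sum at 362, 239 and 193 CPM, against 342, 283 and 372 CPM in 8-day controls.

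From 60-day controls to shallow adults 10 members rose and 16 fell, 16.4% against 31.4% of all genes tested. CDT1 rose by 0.90, from 12.5, 10.6 and 13.7 CPM to 25.7, 25.5 and 17.3 CPM, and CDK5 activator 1 rose by 1.15. CENP-V (gene18818), CDK5 and CKS1 (gene14774) fell by 1.53, 1.31 and 1.01. Those 5 were among the 7 that kept the call whichever library was left out, and the count was 16, 15 and 11 without 60-day control replicates 1, 2 and 3 and 12 and 14 without shallow adult replicates 1 and 2. CENP-N (1.47), KNTC1 (1.01), condensin-2 subunit G2 (0.78) and polymerase epsilon subunit 3 (0.71) rose, and CDK1 (-0.83), APC15B (-0.80) and CDK2-interacting protein (-0.73) fell. A gene named for the Dictyostelium kinase DDB_G0278487 had 1 count in shallow adults and 249 in 60-day controls, a ratio of 307 with a 95% counting interval of 54.6 to 12181.

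Few members were called between translocated and control juveniles, which does not show that the others did not differ. At 8 days edgeR called 0 of 159, beside 0.00389% of all genes tested, with 3 at an unadjusted p under 0.05 (5.43% of all genes) and 0 by DESeq2. Those 3 were ORC3 (-0.53), the cyclin-related gene FAM58A (-0.66) and CDK5 activator 1 (0.48). The signs leaned one way, with 132 of 159 changes negative and a median of -0.20 against -0.03 over all genes. They come from the same libraries, in which members can move together, so they are not separate observations. The summed level of all tested members was 4345, 3819 and 3471 CPM in translocated libraries and 4514, 3933 and 4515 CPM in controls. Cyclin-B differed by -0.36 (SE 0.28, adjusted p = 0.95), MCM4 by -0.26 (SE 0.30, adjusted p = 0.966) and CDC20 (gene24141) by -0.64 (SE 0.33, adjusted p = 0.944). In these same libraries 43 changes of the 47 S-phase genes outside the rule were negative, and 0 were called. For cyclin-B and MCM4 translocated replicate 1 (51.2 and 63.6 CPM) stood above every control library, and replicates 2 and 3 stood below every one.

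At 60 days 1 member was called, 0.629% against 2.36% of all genes (1.08% higher, 1.28% lower). DNA polymerase eta, which copies past ultraviolet damage, stood at 21.4, 14.7 and 20.1 CPM in controls and at 11.8, 9.51 and 6.97 CPM in translocated juveniles (-0.99, SE 0.26, adjusted p = 0.044). The groups did not overlap, but the call was lost without 60-day control replicate 1 or 3 or translocated replicate 2 or 3, with a highest adjusted p of 0.156. The count was 0 without control replicate 1 or 3 or translocated replicate 3, and 2 without translocated replicate 1. DESeq2 called 4 members, and edgeR had 19 at an unadjusted p under 0.05, beside 16.8% of all genes. CDKN1B stood at 34.2, 26.7 and 43.6 CPM in controls and at 40.7, 55.5 and 89.5 CPM in translocated juveniles, which overlapped (0.83, adjusted p = 0.107). The difference between the translocation effects at 60 and at 8 days was called for 0 members by edgeR, beside 0.0777% of all genes (0.0350% higher, 0.0427% lower), with 4 at an unadjusted p under 0.05 (6.94% of all genes) and 0 by DESeq2.

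Native depth was compared in planulae and in adults. In planulae 22 members were higher and 16 lower at 45 m, 23.9% against 22.9% of all genes tested (12.5% higher, 10.4% lower), so the share called was near the background. The main genes of the 6 helicase subunits, the cell cycle cyclins and CDK1 (gene17281) were not among the members called: MCM4 differed by 0.40 (SE 0.32, adjusted p = 0.403) and cyclin-B by 0.34 (SE 0.29, adjusted p = 0.434). The short gene named MCM5 (gene6786) was called higher, with 45 counts in deep and 0 in shallow planulae. Without shallow planula replicate 1 the counts were 23 and 17, and without deep planula replicate 1 the count was 24 in all.

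The 6 largest rises among called members with at least 5 CPM and no overlap were mostly of kinetochore genes. This ranks single genes, and a rise of the kinetochore genes as a set was not tested. Of the genes named for the centromere, CENP-W fell, and CENP-V (gene18817) had 72 counts in shallow and 3 in deep planulae. CENP-E (gene3942) stood at 11.1, 7.59 and 7.17 CPM in shallow and at 28.4, 41.5 and 56.5 CPM in deep planulae (2.29, SE 0.23, adjusted p = 4.59e-06). CENP-I stood at 6.80, 4.60 and 7.09 CPM and at 26.8, 41.0 and 10.1 CPM (2.08, SE 0.42, adjusted p = 0.002). NDC80 stood at 12.1, 9.13 and 11.2 CPM and at 29.7, 26.0 and 22.3 CPM (1.27, SE 0.23, adjusted p = 0.000976). No overlap between the depths was a condition for naming these genes and so adds no support. Of the 159 tested members, 53 met it. The share over all genes was not worked out, so this count is no result about the members. KNTC1, of the checkpoint complex at the kinetochore, rose by 1.57, a second CENP-E gene (gene2682) by 1.51 and condensin-2 subunit G2 by 1.25. CDC6, with 2 counts over the shallow planula libraries, had 235 over the deep ones, a ratio of 71.2 (95% counting interval 19.5 to 591).

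Members that fell belonged to several complexes. A gene named CDC20 (gene11171) stood at 7.86, 11.9 and 12.1 CPM in shallow and at 1.83, 3.07 and 0.768 CPM in deep planulae (-2.49, SE 0.41, adjusted p = 0.000398). APC11 stood at 23.0, 34.9 and 39.5 CPM and at 10.3, 12.9 and 10.3 CPM (-1.54, SE 0.38, adjusted p = 0.00707), and APC15B fell by 1.16. Polymerase epsilon subunits 3 and 4 fell by 1.15 and 1.49, polymerase delta subunit 2 by 1.06, the GINS subunit SLD5 by 1.05 and CENP-W by 1.32. Epsilon subunit 4 lost its call without shallow planula replicate 2 or deep planula replicate 1, and CENP-W without deep planula replicate 1 (adjusted p 0.0607). The other GINS subunits did not pass the test: PSF2 differed by -0.76 (SE 0.27, adjusted p = 0.0529), PSF3 by -0.08 (SE 0.38, adjusted p = 0.905) and PSF1 by -0.05 (SE 0.28, adjusted p = 0.933).

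The members that rose and fell between planulae of the 2 depths differed in length. The deposited gene lengths had a median of 3262 bases for the 22 higher and 1040 bases for the 16 lower members. Of the 42 members of 3000 bases or more, 13 were higher and 0 lower (all genes of that class 23.0% and 6.16%), and of the 55 under 1500 bases 2 were higher and 12 lower (7.66% and 13.2%). The Spearman correlation of change with length was 0.42 over the 159 members and 0.12 over 25363 genes with a length. In adults it was -0.18 and -0.08. Over the members it was also positive in other comparisons: 0.30 for translocation at 8 days and for shallow adults against shallow planulae, 0.26 and 0.19 for 8-day translocated and control juveniles against shallow planulae, and 0.25 for shallow adults against 60-day controls. This relation was sought after the values were seen and carries no test, and the part of length in the depth calls was not tested.

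**Figure D5:**
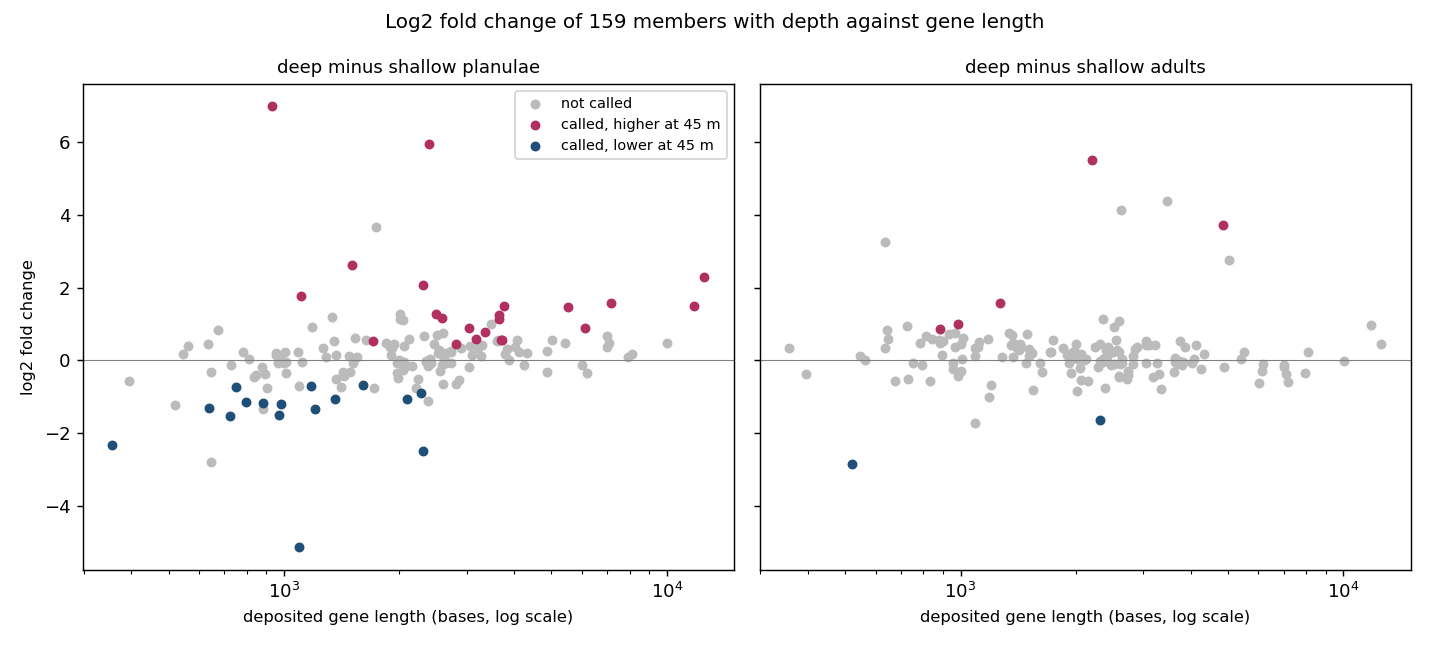
Change with depth on the log2 scale (deep minus shallow) of each member against the deposited gene length in bases (log axis), in planulae (left) and adults (right); coloured points had an adjusted p under 0.05 and grey points did not. In planulae coloured points above 0 lie mostly at long genes and those below 0 at short genes, with a Spearman correlation of 0.42; in adults it was -0.18.

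In adults 5 members were higher and 2 lower at 45 m, 4.40% against 8.11% of all genes (3.77% higher, 4.33% lower). The same CDC20 gene (gene11171) stood at 8.41, 9.61 and 8.93 CPM in shallow and at 2.56, 3.93 and 2.11 CPM in deep adults (-1.64, SE 0.39, adjusted p = 0.0147), with no overlap. It was lower at 45 m in both native comparisons, which share no library. Only 2 members were called in both, this gene in the same direction and APC15B in opposite directions. Whether that is more than unrelated calls would share was not tested. The call of CDC20 (gene11171) in adults was lost without deep adult replicate 1 or 3 (0.0602 without replicate 3). It was also lost when only the compared groups were fitted. Translocation did not lower its mean and did not call it. At 8 days it stood at 6.04, 7.84 and 5.71 CPM in controls and at 5.87, 7.74 and 12.1 CPM in translocated juveniles. At 60 days it stood at 7.45, 5.24 and 5.61 CPM and at 6.75, 11.6 and 9.75 CPM. Cyclin-D2, which takes cells into the cycle, stood at 68.7, 67.4 and 74.4 CPM in shallow and at 173, 112 and 350 CPM in deep adults (1.59, SE 0.36, adjusted p = 0.00927). Deep adult replicate 3 held the highest level, and without it the adjusted p was 0.0651. Its depth effect in adults was not shown to differ from that in planulae (difference 1.25, adjusted p = 0.101). CKS1 (gene14774) rose by 0.99 and APC15B by 0.86, the latter against its fall in planulae. A CENP-E gene (gene21102) rose by 3.72 but overlapped and lost its call without deep adult replicate 1, and a gene named CDK8 (gene27641) fell by 2.85. The gene named DDB_G0278487 had 48 counts in deep and 1 in shallow adults, a ratio of 86.3 (95% counting interval 14.8 to 3478). All 7 lost the call in some leave-one-out fit, and the count was 3 without shallow adult replicate 1, shallow adult replicate 2 or deep adult replicate 3, and 16 without deep adult replicate 2.

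The depth effect itself differed between adults and planulae for 24 members, 15.1% against 12.9% of all genes tested (6.35% higher, 6.58% lower), of which 11 kept the call whichever library was left out and 7 kept it under every alternative. For CENP-E (gene3942), KNTC1, CDC6 and CDT1, all higher at 45 m in planulae, the effect was lower in adults. For APC11, APC15B and SLD5, all lower at 45 m in planulae, it was higher in adults. KNTC1 stood at 9.52, 6.73 and 6.61 CPM in shallow and at 18.5, 17.7 and 31.8 CPM in deep planulae, but at 32.2, 21.1 and 49.3 CPM and at 16, 35.4 and 16.7 CPM in adults (difference -2.16, SE 0.48, adjusted p = 0.00798). APC11 stood at 6.39, 6.82 and 10.4 CPM in shallow and at 14.0, 7.34 and 24.2 CPM in deep adults, against its fall in planulae (difference 2.49, SE 0.53, adjusted p = 0.00658). The count was 15 without deep planula replicate 2 or deep adult replicate 3 and 14 without shallow adult replicate 2.

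Over the 8 groups, the lowest mean lay in shallow planulae for 62 members and in deep planulae for 38, that is 39.0% and 23.9% against 26.8% and 17.0% of all genes tested. The highest mean lay in 8-day controls for 59 members, 37.1% against 6.79% of all genes. Several members share a name with other genes among which reads may be split, and their levels are uncertain in that respect. These include the genes named MCM7 (gene1274, gene1275 and gene1278), MCM5 (gene6784 and gene6786), CKS1 (gene14774 and gene23739), CDC20 (gene11171, gene20080 and gene24141), CENP-V (gene18816 to gene18818) and the CENP-E and CENP-F genes. Genes named CDK1 (gene14442, gene17281 and gene24137) are also of this kind. No sequence is printed, since the tables used here hold none.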

How the data were processed

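The authors deposited a table of raw read counts per gene for the 24 libraries and an annotated table from which product names and gene lengths in bases were taken. Poly(A) RNA was the input and unique molecular identifiers went in before PCR, per the labels' protocols. The tools DESeq2, Trimmomatic, cutadapt, MultiQC and FastQC are named in the submitters' processing notes. How reads were aligned and counted, on which build and strand setting, and whether molecular identifiers were collapsed is not given in the sources used here. All 24 count columns matched a sample label, and 0 did not.

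The deposited counts were fitted in R 4.3.3 with edgeR 4.0.16 (filterByExpr, 25735 genes kept; TMM scaling; glmQLFit and glmQLFTest on 8 group means, 16 residual degrees of freedom; 2-sided, Benjamini-Hochberg over all genes, threshold 0.05). The script was tested on simulated counts, in which few of the smaller changes were recovered with 3 libraries a group. Alternatives were DESeq2 1.42.0, its size factors in edgeR, no filter, only the compared groups, a replicate block, and each library left out in turn. Counting intervals are exact, at 95%, and cover counting error only. Nothing in the labels says that replicates are separate colonies or broods, so p-values measure only how these samples vary, and that spread may be technical.

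Members and lists were chosen with earlier results of these data known, and roles and length classes were set by hand after product names or values were seen. Named genes are the core genes by role, up to 6 largest rises and falls per comparison among called members without overlap and with at least 5 CPM in the higher group, members called in most or in opposite directions in depth comparisons, and those with a called difference between depth effects; others named were chosen after their values were seen. A planned promoter search was not run, since no promoter table was used here. A nematocyte list found 1 gene and was not used. All 160 members carry a gene number of the National Center for Biotechnology Information, and 151 were found in the RefSeq gene table of assembly jaStyPist1.2. No coordinates are given, since the build of the files is not known.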

Additional observations from a re-analysis of the deposited data

Results flagged for a closer look

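The values below are differences between the depth effect in adults and that in planulae (45 m minus 5 m, log2 scale), each called by edgeR's interaction contrast at an adjusted p under 0.05. Negative values mean that the effect was lower in adults. They were -5.69 for CDC6, -2.16 for KNTC1, -2.09 for CENP-I, -1.84 for CENP-E (gene3942), -1.59 for CDT1 and -1.20 for condensin-2 subunit G2. For proteins that bind cyclins or CDKs they were -1.18 for the cyclin-G-associated kinase GAK, -1.17 for the cyclin-D-binding factor DMTF1 and -1.06 for CDK11B, and for NDC80 -1.05.

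Positive values were 0.72 for CDK20, 1.03 for polymerase epsilon subunit 3, 1.07 for polymerase delta subunit 2, 1.29 for the GINS subunit PSF2, 1.30 for CDK5 and 1.65 for CENP-W. Larger ones were 1.74 for the GINS subunit SLD5, 2.02 for APC15B, 2.24 for polymerase epsilon subunit 4 and 2.49 for APC11. Genes of low count gave 2.65 for a short gene named MCM7 (gene1274), 3.44 for CENP-V (gene18817), 4.04 for CENP-E (gene21102) and 6.29 for the gene named DDB_G0278487. The 11 that kept the call whichever library was left out were CDC6, KNTC1, CENP-E (gene3942), CDT1, DMTF1, CDK11B, CDK5, SLD5, APC15B, APC11 and CENP-V (gene18817). Of these, KNTC1, CDT1, CDK11B and CENP-V (gene18817) lost the call when only the compared groups were fitted, which left 7 that kept it under every alternative.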

How the results depend on the processing

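For 112 changes, those of members picked by the naming rule, no direction turned under the alternatives run. Most of them were picked as called and without overlap between groups. Leaving out 1 library could hardly reverse such changes, so their stable direction adds little support. Of the values recomputed for the 112 changes, 1169 kept their side of the threshold and 207 lost it. Changes of other members in the text are not among these. With 1 library left out in turn, members called numbered 24 to 40 between planulae of the 2 depths, 3 to 16 between adults, 0 to 0 for translocation at 8 days and 0 to 2 at 60 days. They numbered 90 to 98 and 85 to 93 for 8-day controls and translocated juveniles against shallow planulae, 2 to 11 and 1 to 4 for 60 against 8 days in controls and translocated juveniles, and 11 to 18 for shallow adults against 60-day controls. They numbered 84 to 91 and 75 to 91 for shallow and deep adults against planulae, and 14 to 29 and 0 to 0 for the differences of depth and of translocation effects. Fits with fewer samples have less power by construction.

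With only the compared groups fitted, counts were 25 and 0 for depth in planulae and adults, 0 for translocation at 60 days, 27 and 2 for 60 against 8 days in controls and translocated juveniles, 56 for deep adults against deep planulae and 8 for the difference of depth effects. DESeq2 called 21 for depth in adults, 4 for translocation at 60 days, and 34 and 13 for 60 against 8 days. The 1 call for translocation at 60 days was also lost (0) with DESeq2 size factors and with no filter. The cause was not tested.

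Replicate numbers did not pair the libraries: deviations of same-numbered libraries correlated at -0.197 to 0.342, and no comparison had every pair over 0.1. With the replicate block the call for translocation at 60 days was lost (0), and the counts for depth were 39 in planulae and 8 in adults. Depth of sequencing limits the genes with few counts, such as CDC6 in shallow planulae, to the intervals given.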
